A study of Homo sapiens with 9 samples.

Results

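The 9 genes described here encode parts of the machinery of endoplasmic reticulum (ER)-associated degradation: the ubiquitin ligase SYVN1, its membrane partners SEL1L and HERPUD1, the lectin OS9, the E2 enzymes UBE2J1 and UBE2G2, and the derlins DERL1, DERL2 and DERL3. They were chosen by gene symbol, as 9 of the 58735 genes in the count table, and all 9 were among the 15555 genes with enough counts to be tested. RNA-seq was performed on VCaP cells, an established human prostate cancer cell line, after transfection with a control siRNA (siCtrl) or with siCDO1A or siCDO1C, each an siRNA against CDO1, the enzyme that oxidises cysteine. Each of the 3 groups had 3 libraries, named in the labels as biological replicates 1 to 3 with a batch number equal to the replicate number. Every group was grown in serum-containing medium with 2 nM of the androgen DHT, so that no group was without androgen, and siCtrl cells are named wild type and the others CDO1 knockdown in the labels. Transfection was transient in a single line.

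In ER-associated degradation, misfolded proteins of the ER are recognised by lumenal chaperones and lectins and handed to ubiquitin ligases in the ER membrane. They are moved back across the membrane, tagged with ubiquitin with the help of E2 enzymes, pulled out by the ATPase p97 (VCP) and degraded by the proteasome. In cells that secrete much protein, such as prostate luminal cells, genes of this pathway are known to be induced by the unfolded protein response, the set of signals that the ER sends when its folding load is high.

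HERPUD1, a membrane protein with a ubiquitin-like domain that binds the SYVN1 complex, fell by 29.3% with siCDO1A and fell by 43.1% with siCDO1C. UBE2G2, a cytosolic E2 enzyme, rose with both, by 17.7% and 22.4%. UBE2J1, an E2 enzyme anchored in the ER membrane, was past the threshold only in the siCDO1A comparison, and OS9 only in the siCDO1C comparison. With the batch number as a block, the calls of UBE2G2 with siCDO1C (adjusted p = 0.0563 in edgeR), UBE2J1 with siCDO1A (0.0529) and OS9 with siCDO1C (0.107) were lost. SYVN1, SEL1L and the derlins did not pass the test with either siRNA.

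The libraries held 12061295 to 16073698 counts, and CDO1 was lower by 82.1% ± 4.83 with siCDO1A and by 87.9% ± 6.98 with siCDO1C (SD, n = 3). All 10 markers of prostate luminal and VCaP cells were tested and summed to 6246 to 6408 CPM (counts scaled to the same library total) in siCtrl, 7088 to 7469 in siCDO1A and 6634 to 6802 in siCDO1C. Of the markers of other cells, 1 of 3 basal, 1 of 4 fibroblast, 1 of 3 endothelial and 0 of 3 leukocyte genes had enough counts to be tested, with COL1A2 and CDH5 at 0 in all 9 libraries. The groups' sums of fibroblast markers were 1.71 to 3.10, 3.62 to 4.75 and 2.67 to 3.80 CPM in siCtrl, siCDO1A and siCDO1C, those of basal markers 1.17 to 1.51, 2.31 to 3.42 and 1.30 to 2.73 CPM, those of endothelial markers 0.318 to 2.33, 1.52 to 2.38 and 1.44 to 2.67 CPM, and those of leukocyte markers at most 0.412 CPM. The part of these sums in the results below was not tested. As these are bulk samples, fewer cells of a type and less RNA per cell cannot be told apart.

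Levels are CPM scaled with the trimmed mean of M values (TMM), and differences are log2 fold changes with their standard error (SE) from the quasi-likelihood test of edgeR. Adjusted p-values are Benjamini-Hochberg values over all genes tested, and a gene was called past the threshold at 0.05 or less. For 1 gene, the two-sided exact permutation test has a floor of p = 0.1 at this group size, the value obtained wherever the libraries of both groups did not overlap.

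Letter patterns known as binding elements of the unfolded protein response were found in the promoters of HERPUD1 and UBE2J1. These promoters are shown because they held a pattern, whatever the test result of the gene. UBE2G2 and OS9, also past the threshold with at least 1 siRNA, held none and are not shown. Of the 9 genes, 7 had a promoter of 300 bases (250 before and 50 after the start of the transcript) in RefSeq for GRCh38.p14, out of 35116 promoters in all, in which a gene can have several. Both strands were searched for exact matches of the ER stress element (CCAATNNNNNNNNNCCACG), element II (ATTGGNCCACG) and the UPR element (TGACGTGG). These were held by 0.0769%, 0.0541% and 0.729% of all promoters. Element II was found in HERPUD1 at chr16:56932025-56932035, on the gene's own strand at bases -117 to -107 counted from the RefSeq start, which differs from the gene start in the count table. The 250 bases before the start of HERPUD1 (GRCh38, plus strand, chr16:56931892-56932141) are given with element II in capitals.
HERPUD1: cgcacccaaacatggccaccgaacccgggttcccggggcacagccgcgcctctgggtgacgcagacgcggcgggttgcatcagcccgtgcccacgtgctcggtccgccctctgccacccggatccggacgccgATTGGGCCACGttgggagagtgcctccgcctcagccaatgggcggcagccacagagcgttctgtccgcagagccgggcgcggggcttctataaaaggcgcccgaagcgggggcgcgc
The UPR element was found in UBE2J1 at chr6:89352946-89352953, at bases -231 to -224 counted from the RefSeq start and on the strand opposite to the gene. This start lies inside the gene as given in the count table (chr6:89326625-89352848), and so does part of the printed bases. The element lies outside it, closer to the gene start of the count table than to the RefSeq start. The 250 bases before the start of UBE2J1 (GRCh38, minus strand, chr6:89352723-89352972) are given with that element in capitals.
UBE2J1: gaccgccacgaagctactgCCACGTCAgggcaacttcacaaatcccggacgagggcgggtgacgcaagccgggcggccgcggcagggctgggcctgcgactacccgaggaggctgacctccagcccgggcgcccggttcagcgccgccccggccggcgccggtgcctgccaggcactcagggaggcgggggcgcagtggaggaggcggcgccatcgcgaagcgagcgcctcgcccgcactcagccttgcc
An exact match of the ER stress element was in none of the 7 promoters. UBE2G2, OS9, SYVN1, SEL1L and DERL2 held no exact match of the 3 patterns in this window. Near matches were not searched for in any promoter. The printed HERPUD1 bases hold ccaatgggcggcagccaca, which differs from the ER stress element in its last base and was not counted. A match in these letters is a description and not a binding site.

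Among the membrane partners of the ligase, HERPUD1 (ENSG00000051108, GRCh38 chr16:56932048-56944863) had 132, 129 and 134 CPM in the siCtrl libraries, 93.0, 91.7 and 93.6 CPM in the siCDO1A libraries and 68.5, 78.1 and 78.7 CPM in the siCDO1C libraries. No library of either siRNA reached the lowest siCtrl library, and no siCDO1C library reached the lowest siCDO1A library. The log2 fold change was -0.50 (SE 0.0578, adjusted p = 5.0e-06 in edgeR) with siCDO1A and -0.81 (SE 0.0769, adjusted p = 2.0e-05) with siCDO1C. Within each batch number the log2 differences were -0.50, -0.49 and -0.51 with siCDO1A and -0.95, -0.72 and -0.76 with siCDO1C. As the library ranges did not overlap with siCtrl, any pairing gives this sign, and it is no added support. Both calls held under all 12 alternatives of processing, with adjusted p-values of at most 1.8e-04 and 0.0013. Of the 15555 genes, 4.37% had a lower log2 fold change than HERPUD1 with siCDO1A and 1.27% with siCDO1C.

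**Figure D1:**
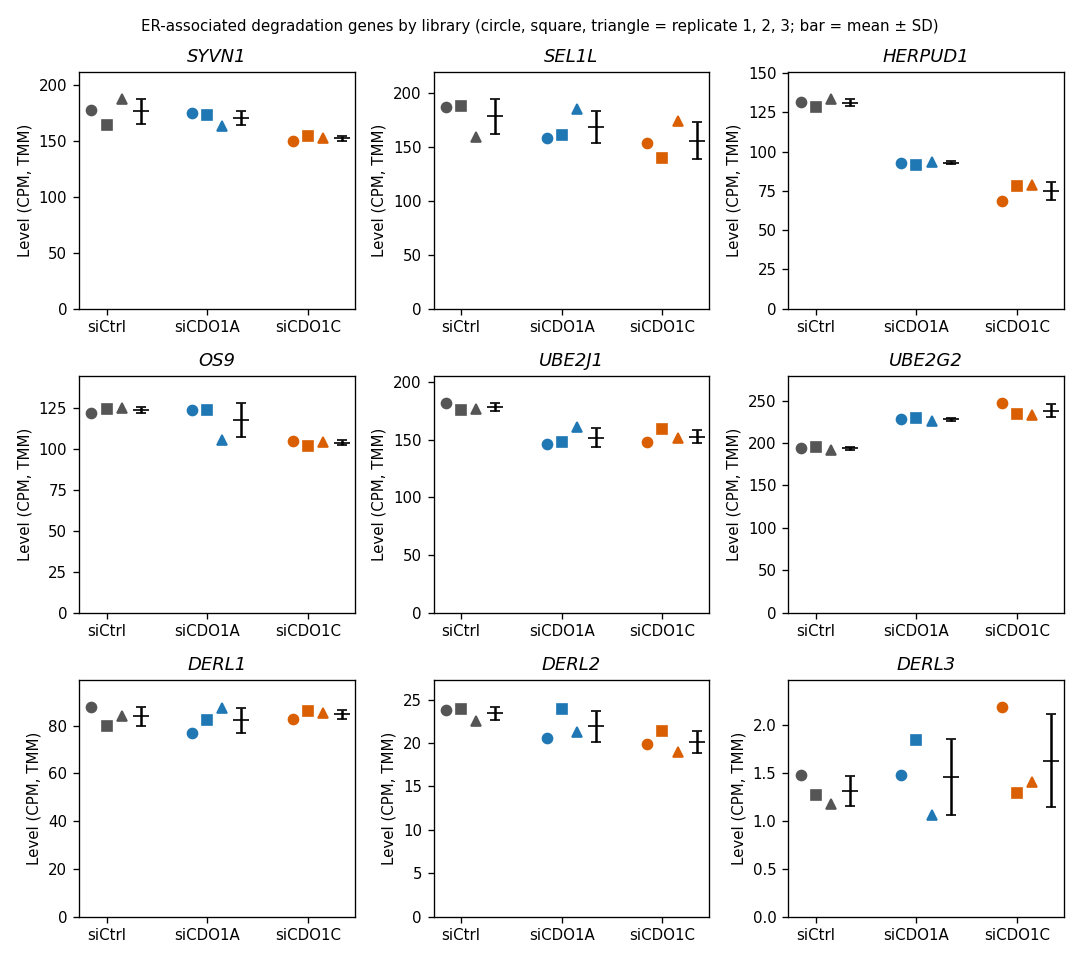
Level of each of the 9 genes (y axis, TMM-scaled CPM from 0) in the 3 libraries of siCtrl, siCDO1A and siCDO1C (x axis), with circle, square and triangle for replicates 1, 2 and 3 and the mean ± SD (n = 3) as a black bar. HERPUD1 stepped down from 129 to 134 CPM in siCtrl to 91.7 to 93.6 and 68.5 to 78.7 CPM, while UBE2G2 lay above all siCtrl libraries with both siRNAs.

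SEL1L (ENSG00000071537, chr14:81471549-81533861), the adaptor that links the ligase to lumenal lectins, spread widely within groups. It had 187, 189 and 159 CPM in siCtrl, 159, 161 and 186 CPM in siCDO1A and 154, 140.1 and 174 CPM in siCDO1C, so that the groups overlapped. Its log2 fold changes of -0.08 (adjusted p = 0.501 in edgeR) and -0.20 (adjusted p = 0.254) had 95% intervals of -0.23 to 0.07 and -0.40 to -0.005. With siCDO1C the SEL1L difference was negative in batches 1 and 2 (-0.28 and -0.43) and positive in batch 3 (0.13).

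SYVN1 (ENSG00000162298, chr11:65121780-65134533), the ubiquitin ligase of the complex, had 177, 164 and 187 CPM in siCtrl and 174, 173 and 163 CPM in siCDO1A, which overlapped. In siCDO1C it had 149.5, 154 and 153 CPM, below all siCtrl and all siCDO1A libraries. The log2 fold change was -0.05 (95% interval -0.18 to 0.07, adjusted p = 0.615 in edgeR) with siCDO1A and -0.22 (95% interval -0.37 to -0.07, adjusted p = 0.101) with siCDO1C. Without replicate 2 of siCDO1C, the SYVN1 difference passed the threshold, at an adjusted p of 0.00754. SYVN1 overlaps FAU on the same strand and MRPL49 on the opposite strand, which had 4746 to 7370 and 3426 to 4584 counts in the libraries. Strand cannot tell reads of SYVN1 from those of FAU, and whether the counting used strand is not given in the sources used here. How reads in such overlaps were counted is not given either, so that the SYVN1 counts may be affected.

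OS9 (ENSG00000135506, chr12:57693955-57721557), a lectin that reads trimmed sugars on misfolded glycoproteins, had 122, 124 and 125 CPM in siCtrl and 124, 124 and 105 CPM in siCDO1A. Replicate 3 of siCDO1A stood below the other two, and the groups overlapped (log2 fold change -0.07, adjusted p = 0.516 in edgeR). In siCDO1C, OS9 had 105, 102 and 104 CPM, below every siCtrl library, and fell by 0.26 on the log2 scale (SE 0.0688, adjusted p = 0.0435). The OS9 difference within batches was -0.21, -0.28 and -0.26. With the batch number as a block the adjusted p was 0.107, with no filter on low counts it was 0.0605, and without replicate 1, 2 or 3 of siCtrl or replicate 1 or 3 of siCDO1C it was 0.167, 0.2, 0.151, 0.132 and 0.0968.

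The E2 enzymes differed in sign. UBE2G2 (ENSG00000184787, chr21:44768580-44802019) had 194, 195 and 192 CPM in siCtrl, 228, 230 and 226 CPM in siCDO1A and 248, 235 and 233 CPM in siCDO1C. Every library of either siRNA was above every siCtrl library. The log2 fold change of UBE2G2 was 0.23 (SE 0.0514, adjusted p = 0.00371 in edgeR) with siCDO1A, past the threshold under all 12 alternatives, and 0.29 (SE 0.0679, adjusted p = 0.0228) with siCDO1C. The siCDO1C call was lost with the batch number as a block (adjusted p = 0.0563), and without replicate 1, 2 or 3 of siCtrl or replicate 1 of siCDO1C (adjusted p = 0.118, 0.132, 0.113 and 0.0992). Within batches the UBE2G2 differences were 0.23, 0.23 and 0.24 with siCDO1A and 0.35, 0.27 and 0.28 with siCDO1C. As the library ranges did not overlap, any pairing gives this sign, and it is no added support.

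UBE2J1 (ENSG00000198833, chr6:89326625-89352848) had 182, 176 and 177 CPM in siCtrl, 146, 148 and 161 CPM in siCDO1A and 148, 159 and 151 CPM in siCDO1C, with all libraries of both siRNAs below those of siCtrl. Its log2 fold change was the same to 2 decimals with both siRNAs, -0.23, with an SE of 0.0569 and an adjusted p of 0.0082 in edgeR for siCDO1A and an SE of 0.0686 and an adjusted p of 0.0686 for siCDO1C. The UBE2J1 call with siCDO1A was lost with the batch number as a block (adjusted p = 0.0529) and without replicate 1 of siCtrl or replicate 1 or 2 of siCDO1A (adjusted p = 0.0522, 0.0546 and 0.0511). With siCDO1C it was past the threshold without replicate 2 of siCDO1C, at an adjusted p of 0.00104. The difference between siCDO1C and siCDO1A was 0.01 (95% interval -0.16 to 0.17). Within batches UBE2J1 was lower than in siCtrl in 3 of 3 with each siRNA, which ranges without overlap fix for any pairing.

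**Figure D2:**
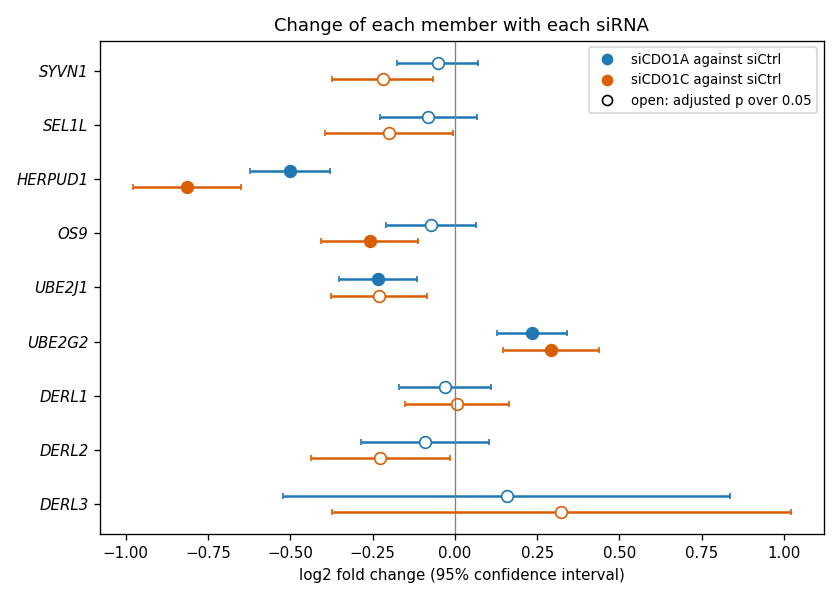
Log2 fold change (x axis) of the 9 genes (y axis) with siCDO1A (blue) and siCDO1C (orange) against siCtrl, with 95% confidence intervals from the fit, filled where the adjusted p was 0.05 or less. HERPUD1 lay furthest to the left with both siRNAs, at -0.50 and -0.81, and the filled points of UBE2G2 lay to the right, at 0.23 and 0.29.

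The derlins, which form part of the channel through which proteins leave the ER, did not pass the test. DERL1 had 88.0, 80.0 and 84.0 CPM in siCtrl, 76.9, 82.5 and 87.4 CPM in siCDO1A and 82.8, 86.4 and 85.4 CPM in siCDO1C, and the groups overlapped. The 95% interval of its log2 fold change was -0.17 to 0.11 with siCDO1A and -0.15 to 0.16 with siCDO1C. DERL2 had 23.8, 23.9 and 22.5 CPM in siCtrl, 20.6, 23.9 and 21.3 CPM in siCDO1A and 19.9, 21.4 and 18.9 CPM in siCDO1C.

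The DERL2 libraries of siCDO1C lay below those of siCtrl, with a log2 fold change of -0.23 (95% interval -0.44 to -0.01, adjusted p = 0.234 in edgeR), and those of siCDO1A overlapped them. DERL2 overlaps MIS12 on the opposite strand (192 to 302 counts), and DERL1 overlaps TBC1D31 in the same way (200 to 278 counts). DERL3, a derlin of strongly secreting tissues, had only 16 to 32 counts per library, or 1.06 to 2.19 CPM, and overlaps SMARCB1 on the opposite strand (1285 to 1848 counts). Its 95% intervals ran from -0.52 to 0.84 with siCDO1A and from -0.37 to 1.02 with siCDO1C.

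Counted together, 1 of the 9 genes was higher and 2 were lower with siCDO1A, where 7.37% of all genes tested were higher, 7.48% lower and 14.8% past the threshold in either direction. With siCDO1C 1 was higher and 2 were lower, where 2.27% of all genes were higher, 2.5% lower and 4.77% past the threshold. The median log2 fold change of the 9 genes was -0.07 and -0.22, against 0.010 and -0.000 over all genes tested. Library ranges did not overlap with siCtrl for 3 of the 9 genes with siCDO1A and 6 with siCDO1C, and for 30.6% and 24.2% of all genes. HERPUD1 was lower with both siRNAs, as were 1.72% of all genes, and UBE2G2 was higher with both, as were 1.9%. With the batch number as a block, 1 gene was higher and 1 lower with siCDO1A, and 0 were higher and 1 lower with siCDO1C. The genes lower with siCDO1A numbered 1 without replicate 1 of siCtrl or replicate 1 or 2 of siCDO1A, and those lower with siCDO1C ranged from 1 without any 1 of the other 5 libraries to 4 without replicate 2 of siCDO1C. The count higher with siCDO1C was 0 without replicate 1, 2 or 3 of siCtrl or replicate 1 of siCDO1C.

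Between the siRNAs, the test of siCDO1C against siCDO1A in edgeR passed 0 of the 9 genes, where 0.444% of all genes tested were past the threshold. At an unadjusted p under 0.05 there were 3 (HERPUD1, SYVN1 and OS9), where 7.65% of all genes were under it, and DESeq2 also gave 0. The HERPUD1 difference between the siRNAs was -0.31 (95% interval -0.49 to -0.13, adjusted p = 0.183), and -0.34 with an adjusted p of 0.0171 without replicate 2 of siCDO1C. Library ranges of siCDO1C and siCDO1A did not overlap for 4 of the 9 genes (SYVN1, HERPUD1, OS9 and UBE2G2) and for 12.7% of all genes. Both comparisons with siCtrl share the same 3 siCtrl libraries.

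Per length of gene, UBE2J1 had the highest level in siCtrl, 41.6 ± 0.781 CPM per kb (SD, n = 3), followed by SYVN1 (32.1 ± 2.08), UBE2G2 (26.2 ± 0.230), HERPUD1 (25.5 ± 0.482), OS9 (23.9 ± 0.343), SEL1L (18.7 ± 1.74), DERL1 (11.9 ± 0.561), DERL2 (3.67 ± 0.123) and DERL3 (0.345 ± 0.0404). The library ranges of neighbours in this order were apart in siCtrl throughout. The lengths are those deposited for each gene and need not be those of the transcripts expressed. The order between genes rests on these lengths, and the overlap with FAU may affect the place of SYVN1. HERPUD1 held rank 4 in siCtrl, rank 5 in siCDO1A (18.0 ± 0.187 CPM per kb) and rank 6 in siCDO1C (14.6 ± 1.12), where its range overlapped that of SEL1L with both siRNAs. UBE2G2 moved from rank 3 to rank 2 in siCDO1C (32.2 ± 1.10), with its range above that of SYVN1 (27.7 ± 0.421), and in siCDO1A its range overlapped that of SYVN1. OS9 and the derlins kept the order OS9, DERL1, DERL2, DERL3 in all groups.

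**Figure D3:**
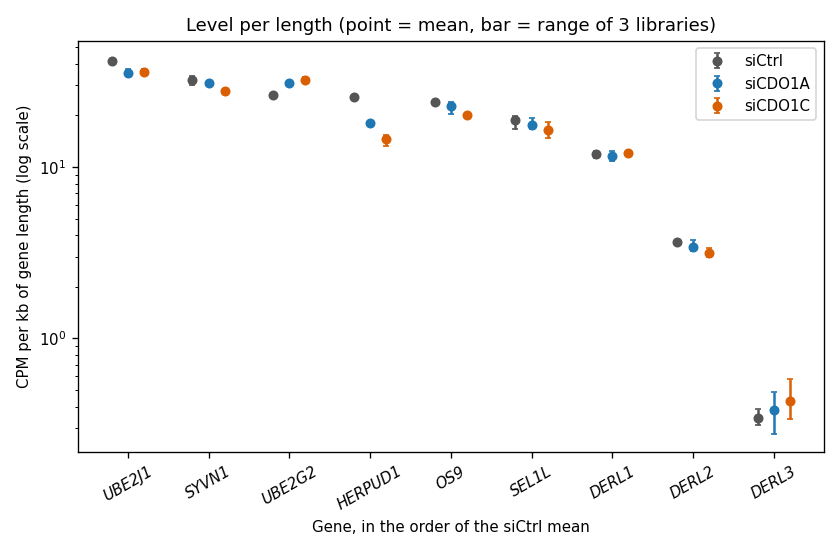
Level per kb of gene length (y axis, log scale, TMM-scaled CPM per kb) of the 9 genes (x axis, in the order of the siCtrl mean) in siCtrl, siCDO1A and siCDO1C, with the mean as a point and the range of the 3 libraries as a bar. DERL3 lay lowest at 0.345 to 0.429 CPM per kb in the group means, and HERPUD1 went from 25.5 in siCtrl to 14.6 in siCDO1C.

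Ratios of levels per kb within a library do not depend on the scaling of that library. HERPUD1 over SYVN1 was 0.796 ± 0.0370 in siCtrl, 0.582 ± 0.0259 in siCDO1A and 0.526 ± 0.0332 in siCDO1C (SD, n = 3), with the libraries of both siRNAs below those of siCtrl (exact permutation p = 0.1 each, two-sided). UBE2G2 over UBE2J1 was 0.631 ± 0.0120, 0.875 ± 0.0509 and 0.908 ± 0.0600, with both above siCtrl (exact permutation p = 0.1 each). Every library of both siRNAs lay above siCtrl in UBE2G2 and below it in UBE2J1. The separation of this ratio was thereby fixed, and it is no added support. The ratio of SEL1L to SYVN1, the core of the ligase complex, was 0.586 ± 0.0873, 0.571 ± 0.0724 and 0.590 ± 0.0661 and overlapped between all groups. That of OS9 to SEL1L overlapped as well, at 1.29 ± 0.141, 1.30 ± 0.221 and 1.24 ± 0.119. DERL2 over DERL1 was 0.310 ± 0.0190, 0.296 ± 0.0255 and 0.263 ± 0.0150, and only the siCDO1C libraries lay below those of siCtrl.

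**Figure D4:**
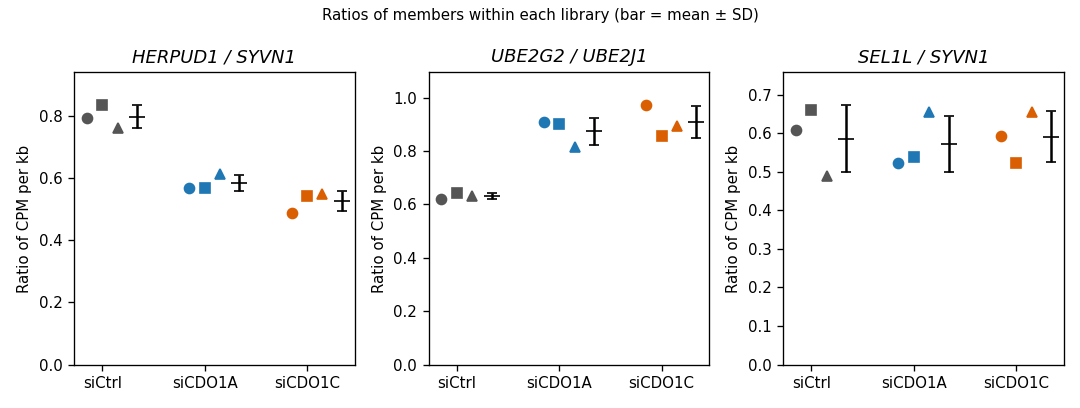
Ratios of CPM per kb (y axis, from 0) within each library for HERPUD1 over SYVN1, UBE2G2 over UBE2J1 and SEL1L over SYVN1, by group (x axis), with a symbol per replicate and the mean ± SD (n = 3) as a black bar. The first ratio dropped from 0.796 to 0.526, the next rose from 0.631 to 0.908, and the last stayed near 0.586 with overlapping libraries.

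A list of 74 other genes of the pathway was chosen by hand with earlier results of these data known, so its counts by role are a description. Of these 74 genes, all of which were tested, 3 rose and 12 fell with siCDO1A, while 1 rose and 8 fell with siCDO1C. That is 4.05% higher and 16.2% lower with siCDO1A, against 7.37% and 7.48% of all genes, and 1.35% higher and 10.8% lower with siCDO1C, against 2.27% and 2.5%. The list's median log2 fold change was -0.03 and -0.05, close to that of all genes. Of the 13 genes of lumenal recognition, the chaperones and lectins that find misfolded proteins, 8 were lower with siCDO1A (61.5%, median -0.23) and 7 with siCDO1C (53.8%, median -0.41). The 8 with siCDO1A became 3 with the batch number as a block, 2 in the fit of all 9 libraries, 2 or 4 without replicate 1 or 2 of siCtrl and 3 or 4 without replicate 1 or 2 of siCDO1A. The 7 with siCDO1C stayed 7 with the block and in the fit of all 9 libraries, and became 3 or 4 without replicate 1 or 2 of siCtrl and 4 without replicate 1 of siCDO1C. Of the 15 other ubiquitin ligases, 2 were lower with siCDO1A (13.3%) and 1 with siCDO1C (6.67%). Of the 14 genes of p97 and its cofactors 1 was lower with siCDO1A (7.14%, near the share of all genes), and 0 passed in edgeR with siCDO1C, where 21.4% of them and 18.6% of all genes had an unadjusted p under 0.05. With the batch number as a block, the list had 6 lower genes with siCDO1A and 8 with siCDO1C. The siCDO1A count was 6 without replicate 1 or 2 of siCtrl or replicate 2 of siCDO1A, 7 without replicate 1 of siCDO1A and 18 without replicate 3 of siCDO1A, and 4 in the fit of all 9 libraries. The siCDO1C count was 4 without replicate 1 or 2 of siCtrl, 5 without replicate 1 of siCDO1C and 18 without replicate 2 of siCDO1C. The list genes higher with siCDO1A numbered 10 without replicate 3 of siCDO1A, and those higher with siCDO1C 0 without replicate 1 or 2 of siCtrl or replicate 1 of siCDO1C and 3 without replicate 2 of siCDO1C.

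HSPA5, the main ER chaperone (BiP), had 1580, 1592 and 1607 CPM in siCtrl, 1393, 1367 and 1315 CPM in siCDO1A and 1006, 1205 and 1062 CPM in siCDO1C. The groups were apart in that order, with log2 fold changes of -0.23 (SE 0.0457, adjusted p = 0.00173 in edgeR) and -0.55 (SE 0.0752, adjusted p = 6.6e-04) that held under all 12 alternatives. HSP90B1, the ER form of HSP90, had 2049, 2077 and 2061 CPM in siCtrl, 1950, 1941 and 1888 CPM in siCDO1A and 1346, 1709 and 1430 CPM in siCDO1C.

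With siCDO1C HSP90B1 fell by 0.47 on the log2 scale (SE 0.0831, adjusted p = 0.00396), and with siCDO1A it did not pass (-0.10, adjusted p = 0.146). In siCDO1C, replicate 2 stood above the other libraries in both HSPA5 and HSP90B1. This library also had the weakest CDO1 reduction of its group. The CDO1 log2 fold change with siCDO1C was -3.05 with all libraries, -3.63 without replicate 2, and -2.79 and -2.87 without replicate 1 or 3. A link between these differences was not tested. The promoters of these chaperones held an exact match of the ER stress element, shown in capitals with 5 bases on each side. They were the only 2 that did among the 56 list genes with at least 1 promoter in RefSeq (72 promoters). Their positions in GRCh38 are chr9:125241391-125241409 on the minus strand for HSPA5 and chr12:103930216-103930234 for the first site of HSP90B1, and the second site of HSP90B1, at chr12:103930321-103930339, carries it on the strand opposite to the gene.
HSPA5: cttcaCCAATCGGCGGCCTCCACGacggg
HSP90B1 first site: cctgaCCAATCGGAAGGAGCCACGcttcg
HSP90B1 second site: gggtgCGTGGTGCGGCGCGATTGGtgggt

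DNAJB9, a BiP co-chaperone, had 24.9, 24.5 and 21.5 CPM in siCtrl, 16.5, 13.6 and 12.6 CPM in siCDO1A and 14.6, 18.9 and 15.8 CPM in siCDO1C. It fell with both, with a log2 fold change of -0.73 (SE 0.112, adjusted p = 1.1e-04 in edgeR) for siCDO1A and of -0.53 (SE 0.119, adjusted p = 0.0185) for siCDO1C. The siCDO1C call was lost without replicate 1 or 2 of siCtrl or replicate 1 of siCDO1C (adjusted p = 0.112, 0.107 and 0.114). DNAJB11, another BiP co-chaperone, had 51.7, 49.4 and 55.2 CPM in siCtrl, 45.1, 43.9 and 45.1 CPM in siCDO1A and 33.9, 40.5 and 37.0 CPM in siCDO1C, with log2 fold changes of -0.22 (adjusted p = 0.0482) and -0.50 (adjusted p = 0.00471). Its siCDO1A call was lost with the batch number as a block (adjusted p = 0.148) and in 8 of the other 11 alternatives, and its siCDO1C call without replicate 3 of siCtrl (adjusted p = 0.0511).

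Outside the lumenal genes, RNF170, a ubiquitin ligase of the ER membrane, had 18.0, 19.9 and 18.1 CPM in siCtrl, 13.8, 11.3 and 13.9 CPM in siCDO1A and 12.3, 13.4 and 11.3 CPM in siCDO1C. It fell by 0.52 on the log2 scale with siCDO1A (SE 0.112, adjusted p = 0.00306 in edgeR) and by 0.60 with siCDO1C (SE 0.115, adjusted p = 0.0067, and 0.0593 without replicate 2 of siCtrl). SGTA, which escorts exposed hydrophobic segments in the cytosol, was the 1 of 74 list genes higher with both siRNAs, as were 1.9% of all genes. It had 107, 95.4 and 109 CPM in siCtrl, 146, 149 and 130.2 CPM in siCDO1A and 137, 139 and 129 CPM in siCDO1C, with log2 fold changes of 0.44 (SE 0.0673, adjusted p = 1.1e-04) and 0.37 (SE 0.0761, adjusted p = 0.0109). The siCDO1C call of SGTA was lost without replicate 1 or 2 of siCtrl or replicate 1 of siCDO1C (adjusted p = 0.0532, 0.118 and 0.0504).

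HERPUD2, the closest relative of HERPUD1, moved the other way with siCDO1A. Its levels were 12.6, 15.3 and 12.9 CPM in siCtrl, 18.8, 19.3 and 17.8 CPM in siCDO1A and 19.02, 16.6 and 14.8 CPM in siCDO1C, with a log2 fold change of 0.45 (SE 0.109, adjusted p = 0.00725 in edgeR) with siCDO1A and 0.31 (adjusted p = 0.212) with siCDO1C. Besides HSPA5, DNAJB9, DNAJB11 and RNF170, the list genes EDEM1 and DNAJC10 were past the threshold and lower with both siRNAs. EDEM1 is a mannosidase-like protein that marks glycoproteins for degradation, and DNAJC10 is an ER disulfide reductase. In all, 6 of the 74 list genes were lower with both siRNAs, as were 1.72% of all genes. With the batch number as a block, the siCDO1A calls of EDEM1 and DNAJC10 were lost (adjusted p = 0.0753 and 0.0882 in edgeR), as they were in 3 and 5 further alternatives. With siCDO1C the EDEM1 call was lost without replicate 1 of siCtrl (adjusted p = 0.0673), and the DNAJC10 call without replicate 1 or 2 of siCtrl or replicate 1 of siCDO1C (adjusted p = 0.0709, 0.0768 and 0.0624). Against the other 82 genes of the pathway, HERPUD1 had the lowest log2 fold change with siCDO1C, and only DNAJB9 and RNF170 were lower with siCDO1A. Between the siRNAs, 0 of the 74 list genes passed the test in edgeR. An unadjusted p under 0.05 was found for 6 (8.11%, against 7.65% of all genes). All 6 were among the 13 lumenal recognition genes (46.2% of them, median log2 fold change -0.18). As the list was chosen with earlier results known, this share is a description. DESeq2 passed 2 list genes and 104 of all 15555 genes. The test without replicate 2 of siCDO1C passed 4 list genes and 447 of all genes. With the batch number as a block in edgeR, HSPA5 and HSP90B1 passed (adjusted p = 0.0396 and 0.0156), among 121 of all genes.

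**Figure D5:**
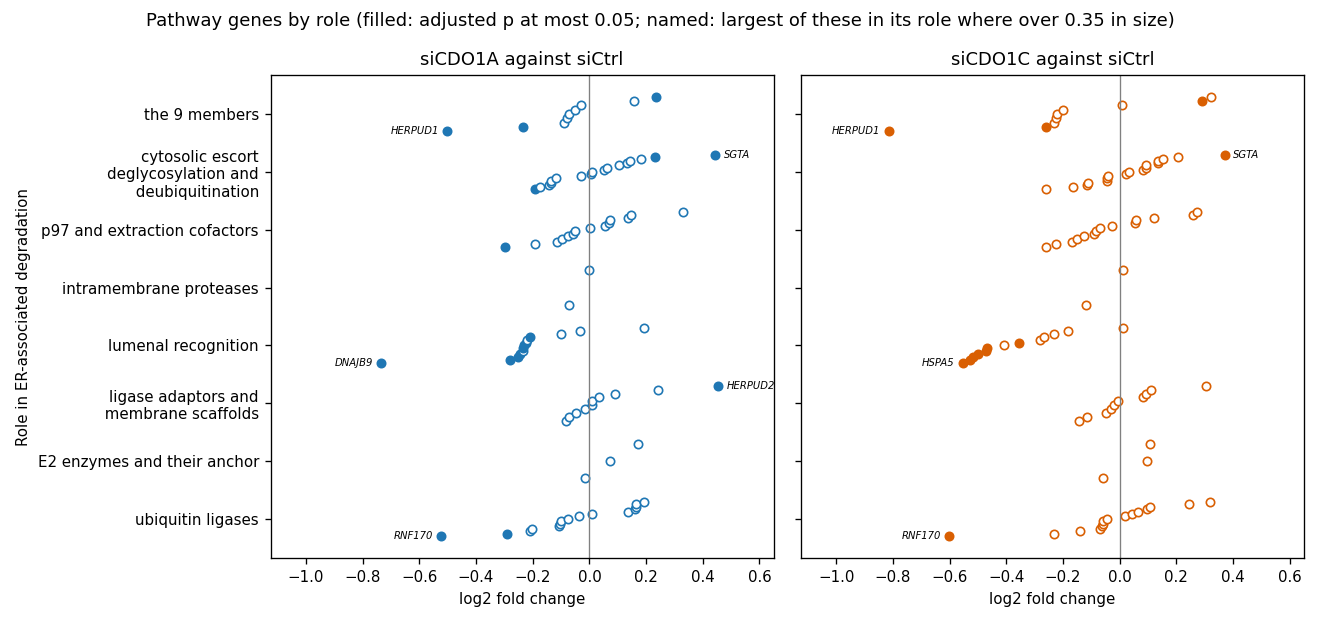
Log2 fold change (x axis) of the 74 other pathway genes by role and of the 9 genes described here (y axis), with siCDO1A against siCtrl on the left and siCDO1C against siCtrl on the right, filled where the adjusted p was 0.05 or less and named where largest in its role and over 0.35 in size. The lumenal recognition genes had medians of -0.23 and -0.41, and HERPUD1 lay furthest left of the 9.

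Element II, the pattern found in HERPUD1, was also in the promoter of 1 of those 56 list genes, SDF2L1, a partner of BiP co-chaperones, at chr22:21642114-21642124 on the strand opposite to the gene. SDF2L1, singled out here after its values were seen for this pattern, had 49.8, 45.9 and 56.4 CPM in siCtrl, 51.9, 54.7 and 42.7 CPM in siCDO1A and 33.2, 48.5 and 33.8 CPM in siCDO1C. The groups overlapped, with log2 fold changes of -0.03 (adjusted p = 0.855 in edgeR) and -0.41 (adjusted p = 0.103). With siCDO1C, SDF2L1 passed the threshold with no filter on low counts and without replicate 2 of siCDO1C, and in no other alternative.
HERPUD1 element II: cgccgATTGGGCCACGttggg
SDF2L1 element II: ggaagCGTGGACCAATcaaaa
The UPR element of UBE2J1 was in 3 of the list genes, namely DNAJC10, VCP and TXNDC11, in the last of these after the start. The log2 fold change of DNAJC10 was -0.21 with siCDO1A (adjusted p = 0.0161 in edgeR, 0.0882 with the batch number as a block). With siCDO1C it was -0.36 (adjusted p = 0.00798), and both calls were lost in some alternatives, as given above. That of VCP, the p97 ATPase, was -0.06 with siCDO1A (adjusted p = 0.479 in edgeR) and -0.09 with siCDO1C (adjusted p = 0.527). TXNDC11, an ER thioredoxin-like protein, had -0.23 with siCDO1A (adjusted p = 0.0401 in edgeR, 0.103 with the batch number as a block and lost in 6 further alternatives) and -0.28 with siCDO1C (adjusted p = 0.0666).

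Likeness of pattern was measured over all 9 libraries as the root mean square difference of log2 CPM, each gene centred on its own mean. The genes nearest to HERPUD1 were ERVE-1, AL445623.2 and OSTM1, at 0.0889, 0.107 and 0.107. OSTM1 had means of 39.5, 29.6 and 26.6 CPM in siCtrl, siCDO1A and siCDO1C, and the other two were low, with at most 6.10 CPM in any group mean. Nearest to UBE2G2 were NXF1, MCM3 and RTN1, at 0.0378, 0.0400 and 0.0423. Their means in siCtrl, siCDO1A and siCDO1C were 64.0, 74.0 and 76.5 CPM for NXF1, 109, 126 and 127 CPM for MCM3 and 160.4, 197 and 204 CPM for RTN1. These genes were chosen for their likeness over the same libraries, so no test of them is given.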

How the data were processed

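Poly(A) RNA of 9 VCaP cultures was made into directional libraries and sequenced from both ends on an Illumina instrument. Per the paper and the submitters' processing notes, base calls came from CASAVA, the notes list HISAT2 2.0.5 and the build hg38, and the authors counted reads per gene with featureCounts. These counts were deposited as whole numbers without normalization and were used as deposited, and the gene lengths and coordinates are those deposited beside them. Whether the counting used strand or multiply mapped reads is not given in the sources used here. A further 3 columns of the count table match no sample analysed here and were used in no step.

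The 9 genes, the list of 74 other pathway genes and the marker lists were chosen by hand from general knowledge, with earlier results of these data known. Samples were grouped by siRNA, and each siRNA against CDO1 was compared with siCtrl and the pair with each other, in fits of 6 libraries. The filterByExpr function of edgeR (minimum count of 10 over the 9 libraries) left 15555 of 58735 genes. TMM-scaled counts were tested with the robust quasi-likelihood test of edgeR 4.0.16 in R 4.3.3, with Benjamini-Hochberg adjustment and a threshold of 0.05. The scripts were tested on simulated data with 200 changed genes. Library totals of 12061295 to 16073698 counts put 3 counts at 0.187 to 0.249 CPM, and SDs and tests cover the spread between libraries. Named genes were the 9, CDO1, in each comparison with siCtrl the 3 list genes of smallest adjusted p in each direction, and for genes past the threshold with both siRNAs the 3 genes nearest in pattern. For the latter, log2(CPM + 0.5) was used. A gene named by this rule is not reported here. Alternatives were DESeq2 1.42.0, RLE size factors, 1 joint fit of the 9 libraries, no filter, at least 10 counts in every library, a block for the replicate number, and leaving out each library in turn.

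The pairing of libraries comes from the labels, which give a batch number equal to the replicate number; what the batches were is not given. Over 11332 genes with at least 5 CPM on average, the deviations of same-numbered siCtrl and siCDO1A libraries from their group means correlated at -0.202, -0.0896 and -0.376 for numbers 1, 2 and 3, those of siCtrl and siCDO1C at 0.0523, -0.00773 and -0.277, and those of siCDO1A and siCDO1C at -0.134, 0.127 and 0.378. The study's methods name no block, so the tests were fitted without it and the blocked value stands beside each result it changes.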

Additional observations from a re-analysis of the deposited data

How the results depend on the processing

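HERPUD1 with both siRNAs, UBE2G2 with siCDO1A and CDO1 with both siRNAs kept their direction and their side of the threshold under all alternatives. With the replicate block, the 9 genes had 1 lower with siCDO1A and 0 higher and 1 lower with siCDO1C, and without a filter on low counts 1 lower with siCDO1C. The list genes lower with siCDO1A numbered 6 with the block and 4 in the fit of all 9 libraries, and those lower in siCDO1C against siCDO1A numbered 2 with DESeq2, with the fit of all 9 libraries, without a filter and with the block. Among the 9 genes the block changed no call beyond those of UBE2J1, OS9 and UBE2G2 given above. Leaving out 1 library at a time, the 9 genes had 1 to 2 lower with siCDO1A, 0 to 1 higher and 1 to 4 lower with siCDO1C, and 0 to 1 lower in siCDO1C against siCDO1A. The list had 2 to 10 higher and 6 to 18 lower genes with siCDO1A, 0 to 3 higher and 4 to 18 lower with siCDO1C, and 0 to 4 lower in siCDO1C against siCDO1A. The sign of differences near 0 changed with 1 library left out: OS9 ranged from -0.11 to 0.0017, DERL1 from -0.075 to 0.016 and DERL3 from -0.060 to 0.36 with siCDO1A, DERL1 from -0.026 to 0.049 with siCDO1C, and UBE2J1 from -0.025 to 0.066, DERL1 from -0.0051 to 0.10 and DERL3 from -0.12 to 0.38 in siCDO1C against siCDO1A. The cause of these changes was not tested. Over all genes, calls with siCDO1A went from 2309 to 1358 with the block and 1369 in the fit of all 9 libraries, to 1292 to 1418 without replicate 1 or 2 of siCtrl or of siCDO1A and to 3454 without replicate 3 of siCDO1A. Calls with siCDO1C went from 742 to 2068 without replicate 2 of siCDO1C and to 263 to 368 without any siCtrl library or without replicate 1 of siCDO1C. In siCDO1C against siCDO1A they went from 69 to 104 with DESeq2, 128 in the fit of all 9, 153 without a filter, 121 with the block and 447 without replicate 2 of siCDO1C, and to 18 to 42 without any other library. DESeq2 gave no adjusted p for DERL3, whose 16 to 32 counts per library limit its precision.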
